A study of Homo sapiens with 3 samples.

Results

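The miR-23, miR-27 and miR-24 clusters are a pair of paralogous loci that each encode 3 microRNA hairpins. The 10 mature miRNAs described here are both arms of these hairpins apart from miR-23b-5p, and they were chosen by name from the 1149 mature human miRNAs of the deposited table. Levels were measured by small RNA sequencing in CAL-27 cells, an established line grown from a human tongue squamous carcinoma, in a series that ties miR-21-5p to radiation resistance through alternative end joining. Each of the 3 groups has 1 library, so differences lack replicates and carry no p-value. RR is the radioresistant group, grown from cells given 2 Gy of X-rays a day in 2 cycles of 5 days, with 2 weeks of recovery after each. Mock is described as cells that received 2 Gy once, and CC as untreated control clones. All came from the same parental line, and single-cell clones were picked. The labels do not say how many clones went into a library. The treatment tag of the library labelled Mock reads IR and that of RR reads Gy2, which does not settle which library had the single dose. Directions for Mock and RR therefore refer to the libraries as labelled.

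A miRNA hairpin is cut by Drosha and then Dicer into a duplex, of which one arm is usually loaded into Argonaute and the other degraded. Bases 2 to 8 of the loaded arm, the seed, pair with target mRNAs. The 3p arms are the usual guides of these hairpins. miR-23 represses glutaminase, miR-27 represses the transcription factors PPARG and FOXO1, and miR-24 represses H2AX, the histone that is phosphorylated at DNA breaks. One transcript carries the 3 hairpins of a locus, so their miRNAs share a promoter but are cut and lost separately.

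The mature sequences are shown because the seeds define the groups compared here and because the paralogues are nearly identical. They come from RefSeq on GRCh38.p14, run 5′ to 3′ and have the seed in capitals. The prefix hsa marks human miRNAs and is left out elsewhere. The deposited sequence was the same for 10 of the 10 members.
hsa-miR-23a-3p: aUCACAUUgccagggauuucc
hsa-miR-23b-3p: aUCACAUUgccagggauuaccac
hsa-miR-27a-3p: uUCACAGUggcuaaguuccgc
hsa-miR-27b-3p: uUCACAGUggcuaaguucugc
hsa-miR-24-3p: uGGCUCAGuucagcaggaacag
hsa-miR-23a-5p: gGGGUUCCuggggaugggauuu
hsa-miR-27a-5p: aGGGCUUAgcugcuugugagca
hsa-miR-27b-5p: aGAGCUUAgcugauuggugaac
hsa-miR-24-1-5p: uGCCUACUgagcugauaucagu
hsa-miR-24-2-5p: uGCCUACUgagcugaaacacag
Counting from 1 at the 5′ end, miR-27a-3p and miR-27b-3p differ by the single change C19U. miR-23a-3p and miR-23b-3p differ by U19A over the 21 bases they share, and miR-23b-3p has 2 more bases at its 3′ end. Both changes lie outside the seed. The sources used here do not say how a read that fits both paralogues was assigned, so the split between a and b copies is uncertain. The 5p arms are easier to tell apart: miR-27a-5p and miR-27b-5p differ at 8 of 22 bases, including G3A within the seed. miR-24-3p is the same in both loci, so its reads cannot be assigned to either.

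The a cluster lies on the minus strand of chromosome 19, with MIR23A at 13836587 to 13836659, MIR27A at 13836440 to 13836517 and MIR24-2 at 13836287 to 13836359. These 373 bases fall within an exon of AC020916.1, a gene that GENCODE release 29 types as antisense. The b cluster lies on the plus strand of chromosome 9, with MIR23B at 95085208 to 95085304, MIR27B at 95085445 to 95085541 and MIR24-1 at 95086021 to 95086088, over 881 bases in all. It sits in introns of the protein-coding gene C9orf3 on the same strand, except that 1 of the 7 C9orf3 transcripts spanning MIR24-1 has an exon there. MIR3074, another miRNA gene, overlaps MIR24-1 on the opposite strand. The hairpins of miR-27 are shown with both mature arms in capitals, because the balance of their arms differed most between the loci.
MIR27A: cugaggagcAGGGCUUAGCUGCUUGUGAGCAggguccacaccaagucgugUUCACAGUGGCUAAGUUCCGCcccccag
MIR27B: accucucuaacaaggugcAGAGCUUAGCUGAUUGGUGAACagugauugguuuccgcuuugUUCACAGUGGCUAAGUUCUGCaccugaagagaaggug

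**Figure D1:**
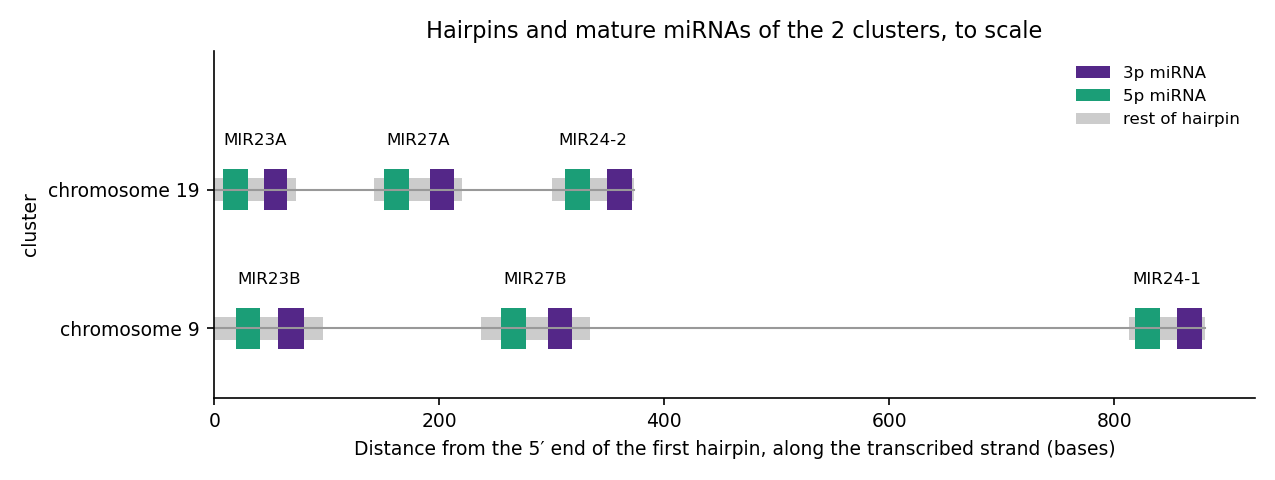
Hairpins (grey) and mature miRNAs (5p green, 3p violet) of both clusters, drawn to scale as the distance in bases from the 5′ end of the first hairpin along the transcribed strand. The order miR-23, miR-27, miR-24 is the same in both, with 373 bases on chromosome 19 and 881 on chromosome 9.

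The per-million scale rests on 10473400 reads in RR, 10632785 reads in Mock and 10769990 reads in CC, and between 16.3% and 23.2% of these were reads of listed miRNAs. Values are in rpm, reads per 1000000 reads of that total. Intervals are exact 95% limits from the reads; they cover counting error only and compare libraries, not conditions. A floor of 3 reads was 0.286 rpm in RR, 0.282 rpm in Mock and 0.279 in CC. The 4 miRNAs fixed as squamous epithelial markers summed to 43898 rpm in RR, 28150 rpm in Mock and 37723 in CC. Nearly all of this was miR-205-5p (29651, 14174 and 25945 rpm in RR, Mock and CC) and miR-200c-3p (14183, 13918 and 11739 rpm). The rest of the list was low, with miR-203a-3p at 39.2, 23.7 and 22.8 rpm and miR-141-3p at 23.9, 34.4 and 16.6 rpm. The library labelled Mock stood apart in its blood miRNAs, of which 6 of 7 were in the table, with a sum of 12.3 rpm in RR, 409.9 rpm in Mock and 9.56 in CC. Most of this was miR-486-5p, at 398 rpm in Mock, while miR-144-3p had 0 reads in RR, 26 in Mock and 0 in CC. Summed levels were 6.49, 5.64 and 6.41 rpm in RR, Mock and CC for the mesenchymal list (3 of 5 in the table), 81.9, 66.9 and 55.2 rpm for the endothelial pair, 408.5, 344.8 and 341.0 rpm for the 3 muscle miRNAs, mostly miR-1-3p, and 2.96, 5.45 and 4.46 rpm for the liver miRNA miR-122-5p. The even sums hid members that moved apart, some of them on few reads. In the muscle list miR-206 had 38 reads in RR, 271 in Mock and 19 in CC, while miR-1-3p was lowest in Mock. miR-133a-3p had only 9, 7 and 11 reads in RR, Mock and CC. In the mesenchymal list miR-199a-5p had 0, 12 and 2 reads in RR, Mock and CC, while miR-143-3p had 66, 47 and 62. miR-145-5p had 2, 1 and 5 reads, at or near the floor of 3. The part of any other cell type in the levels below was not tested, and in bulk RNA fewer cells of a type and less RNA per cell cannot be told apart.

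The clusters were well expressed in all 3 libraries. Their 10 miRNAs summed to 6303 rpm in RR, 6471 rpm in Mock and 4347 in CC, which was 3.07% (3.05% to 3.10%), 2.79% (2.77% to 2.81%) and 2.67% (2.65% to 2.70%) of the reads of listed miRNAs. The guides were led by miR-27a-3p, with 2592 rpm in RR (2562 to 2623), 2615 rpm in Mock (2584 to 2646) and 1697 rpm in CC (1672 to 1721). Its level was nearly equal in RR and Mock and lower in CC. miR-27b-3p, which has the same seed, stood at 806 rpm in RR, 856 rpm in Mock and 581 in CC, again with CC lowest. miR-24-3p was the second most abundant member, with 1364 rpm in RR (1342 to 1387), 1541 rpm in Mock (1518 to 1565) and 906 rpm in CC (889 to 925). For this miRNA the 3 intervals did not overlap and Mock was highest.

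The miR-23 guides were less abundant and varied less between libraries. miR-23a-3p stood at 497 rpm in RR (484 to 511), 553 rpm in Mock (539 to 567) and 425 in CC (413 to 438), so its intervals were apart. miR-23b-3p stood at 460.5 rpm in RR (448 to 474), 447 rpm in Mock (435 to 460.3) and 408 in CC (396 to 420). RR and Mock overlapped for miR-23b-3p, and CC lay below both.

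Among the 5p arms only that of miR-27a reached the level of the guides. miR-27a-5p stood at 553 rpm in RR (539 to 568), 439 rpm in Mock (427 to 452) and 306 in CC (296 to 317), without overlap and with RR highest. miR-23a-5p stood at 18.0 rpm in RR (188 reads), 13.4 rpm in Mock (142 reads) and 12.1 in CC (130 reads), where the interval of Mock overlapped those of RR and CC and the intervals of RR and CC were apart. miR-27b-5p had 111 reads in RR, 52 in Mock and 109 in CC, or 10.6, 4.89 and 10.1 rpm. The intervals of RR and CC overlapped for miR-27b-5p, and that of Mock lay below both. The 5p arms of miR-24, which alone could tell its loci apart, were almost unread: miR-24-2-5p, from chromosome 19, had 2 reads in RR, 6 reads in Mock and 9 reads in CC, and miR-24-1-5p, from chromosome 9, had 1 read in RR, 3 in Mock and 0 in CC, where the floor of 3 reads is 0.279 rpm.

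**Figure D2:**
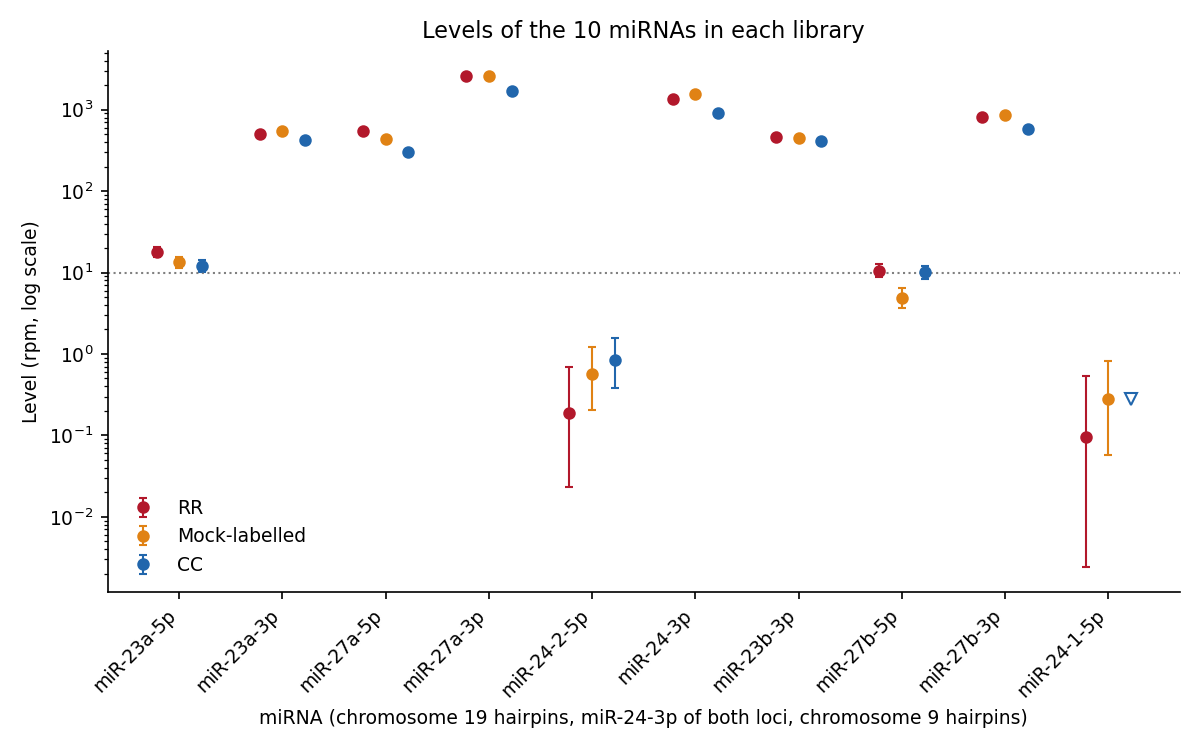
Level of each of the 10 miRNAs in rpm (log axis) in RR, the library labelled Mock and CC, 1 library each; bars are exact 95% Poisson intervals, the open triangle marks the 3-read floor for a count of 0, and the dotted line is 10 rpm. miR-27a-3p was highest, at 2592 rpm in RR, and the 5p arms of miR-24 stayed under 1 rpm in every library.

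The order of the leading 3 members, miR-27a-3p over miR-24-3p over miR-27b-3p, was shared by all 3 libraries, with each neighbour apart beyond counting error. miR-27a-5p had rank 4 in RR, 6 in Mock and 6 in CC. It exceeded miR-23a-3p by 1.11-fold in RR (1.07 to 1.16), whereas in Mock it could not be separated from miR-23b-3p, which was 1.02 times as high (0.978 to 1.06), and in CC miR-23b-3p was 1.33 times as high (1.27 to 1.39). In CC miR-23a-5p and miR-27b-5p were also not separated, at a ratio of 1.19 (0.917 to 1.55). miR-23a-3p and miR-23b-3p were close everywhere, with the narrowest gap in CC, 1.04-fold (1.00 to 1.09). These orders are in rpm, where a read covers the whole miRNA of 21 to 23 bases. Levels per base gave another order only for miR-23b-3p and miR-27a-5p in Mock, at 19.5 and 20.0 rpm per base.

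Ratios between members of 1 library do not depend on its total, and they separated miR-23 from miR-27. In both clusters there was more miR-27 per miR-23 in RR and in Mock than in CC. miR-27a-3p had 5.21 reads per read of miR-23a-3p in RR (5.06 to 5.37), 4.73 in Mock (4.60 to 4.86) and 3.99 in CC (3.86 to 4.12). RR over CC, this ratio differed 1.31-fold (1.25 to 1.37), and Mock over CC 1.19-fold (1.14 to 1.24). On chromosome 9, miR-27b-3p had 1.75 reads per read of miR-23b-3p in RR (1.69 to 1.81), 1.91 in Mock (1.85 to 1.98) and 1.43 in CC (1.37 to 1.48). The differences were 1.23-fold for RR over CC (1.16 to 1.29) and 1.34-fold for Mock over CC (1.27 to 1.41). RR and Mock stood in opposite order at the loci: RR over Mock was 1.10 for the a copies (1.06 to 1.15) and 0.914 for the b copies (0.870 to 0.961). That order rests on the split of reads between the copies, which is uncertain. With both copies summed, RR over Mock was 0.979 for the miR-27 guides (0.965 to 0.993) and 0.957 for the miR-23 guides (0.932 to 0.984). RR over CC and Mock over CC share the CC library. Single miRNAs also spread widely between libraries. Over the 208 miRNAs that averaged at least 10 rpm, log2 ratios of (rpm + 1) had 5th and 95th percentiles of -0.09 and 0.75 in RR over CC. In Mock over CC they were -0.85 and 1.24, and the miR-23 and miR-27 guides lay inside both ranges. How often other pairs of miRNAs differ by as much was not tested. miR-24-3p per miR-27a-3p was 0.526 in RR, 0.589 in Mock and 0.534 in CC, with RR over CC at 0.985 (0.954 to 1.02), an interval that includes 1.

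The chromosome 19 copy of miR-27 gave more reads than the chromosome 9 copy in every library, while the copies of miR-23 were nearly balanced. miR-27a-3p had 3.22 reads per read of miR-27b-3p in RR (3.14 to 3.30), 3.05 in Mock (2.98 to 3.13) and 2.92 in CC (2.84 to 3.00). That ratio was 1.10-fold higher in RR than in CC (1.06 to 1.14). miR-23a-3p had 1.08 reads per read of miR-23b-3p in RR (1.04 to 1.12), 1.24 in Mock (1.19 to 1.28) and 1.04 in CC (1.00 to 1.09). Here Mock stood apart, at 1.18-fold over CC (1.12 to 1.25), and RR over CC, 1.03-fold (0.977 to 1.10), was within counting error. All these copy ratios rest on the uncertain split of reads between the copies, which the intervals do not cover.

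For miR-27, arm use differed more between loci than between libraries. In the MIR27A hairpin the 5p arm gave 17.6% of the reads of both arms in RR (17.2% to 18.0%), 14.4% in Mock (14.0% to 14.8%) and 15.3% in CC (14.8% to 15.8%). In the MIR27B hairpin it gave 1.30% in RR (1.07% to 1.56%), 0.568% in Mock (0.424% to 0.744%) and 1.71% in CC (1.41% to 2.06%). The reads thus favoured the same 3p seed in both hairpins, with a 5p arm that differs in sequence taking a larger share in MIR27A. For MIR23A the 5p share was 3.48% in RR (3.01% to 4.01%), 2.36% in Mock (1.99% to 2.77%) and 2.76% in CC (2.31% to 3.27%), and for MIR23B it was 0.823% in RR (0.588% to 1.12%), 1.18% in Mock (0.898% to 1.53%) and 0.769% in CC (0.533% to 1.07%).

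MIR27A and MIR23A on chromosome 19 had a higher 5p over 3p ratio in RR than in the other libraries. For miR-27a this ratio was 1.18-fold higher in RR than in CC (1.13 to 1.24) and 1.27-fold higher in RR than in Mock (1.22 to 1.32). For miR-23a it was 1.27-fold higher in RR than in CC (1.01 to 1.61) and 1.49-fold higher in RR than in Mock (1.19 to 1.88). For miR-27b it was lower in RR than in CC, at 0.755 (0.573 to 0.995), and higher in RR than in Mock, at 2.30 (1.64 to 3.27). For miR-23b every interval included 1, at 1.07 for RR over CC (0.660 to 1.75), 0.692 for RR over Mock (0.449 to 1.06) and 1.55 for Mock over CC (0.992 to 2.45). Mock over CC, the ratio was 0.930 for miR-27a (0.886 to 0.977), 0.851 for miR-23a (0.664 to 1.09) and 0.328 for miR-27b (0.231 to 0.461). On 2, 6 and 9 reads in RR, Mock and CC, miR-24-2-5p per miR-24-3p, which both loci supply, was 0.152 for RR over CC (0.0160 to 0.734) and 0.382 for RR over Mock (0.0377 to 2.14), below 1 where miR-27a and miR-23a were above it. Shifts of this size were common: among 38 hairpins whose arms both averaged at least 10 rpm, the log2 5p over 3p ratio differed between RR and CC by a median of 0.05, with the 5th and 95th percentiles at -0.54 and 0.56. The differences of miR-27a, 0.24, and of miR-23a, 0.35, ranked 9 and 7 from the highest of those 38. Between RR and Mock the median was -0.07 with percentiles of -1.23 and 0.66, and the differences of miR-27a, 0.34, and of miR-23a, 0.58, ranked 8 and 4. RR over Mock ratios rose with GC content over the 208 miRNAs (Spearman correlation 0.60), and miR-23a-5p has 59.1% GC but miR-23a-3p 47.6%. With a linear GC trend removed, their log2 ratios in RR over Mock were 0.12 and -0.08. Those of miR-27a-5p and miR-27a-3p were 0.19 and -0.09. The part of GC content in these arm differences was not tested.

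**Figure D3:**
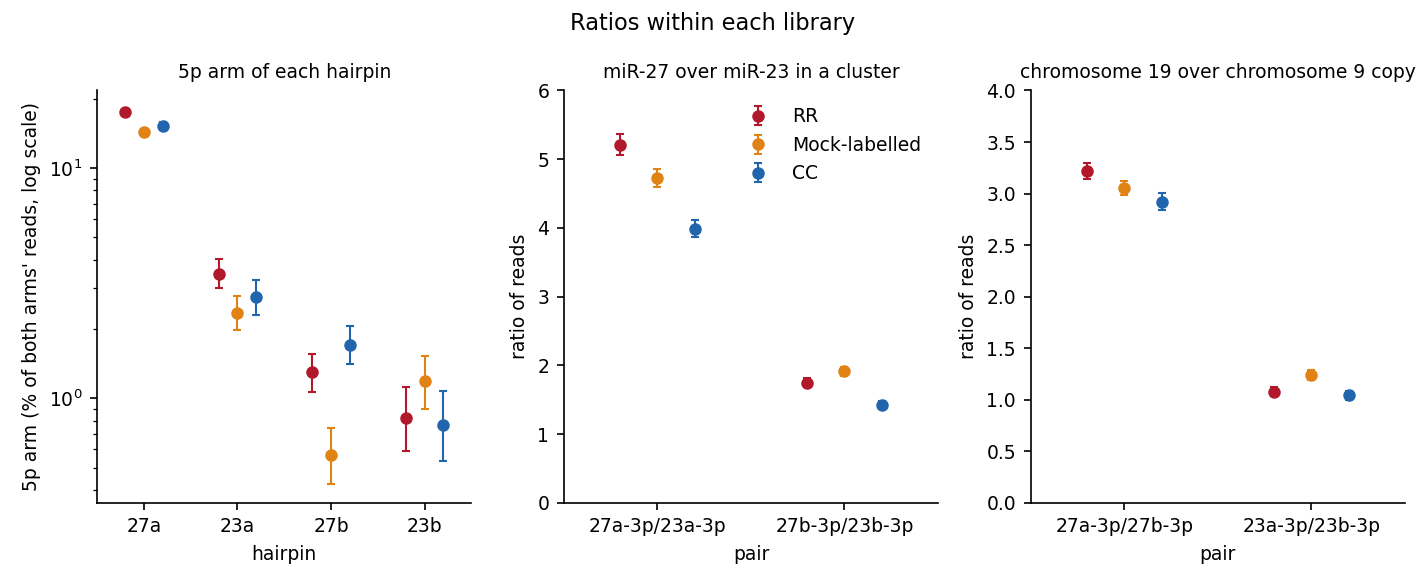
Ratios of reads within RR, the library labelled Mock and CC, with exact 95% intervals: the 5p arm's share of each hairpin (log axis), miR-27 over miR-23 within a cluster, and the chromosome 19 over the chromosome 9 copy. miR-27a-3p over miR-23a-3p was 5.21 for RR, 4.73 for Mock and 3.99 for CC, and the 5p share was 17.6% in RR for MIR27A but 1.30% for MIR27B.

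RR over CC sets radioresistant against untreated cells. Counts and medians cover the 7 members that averaged at least 10 rpm over the libraries, out of 208 miRNAs that did so; miR-27b-5p, miR-24-2-5p and miR-24-1-5p did not. log2 ratios were taken after adding 1 rpm, and folds use the values as deposited. miR-27a-5p had the largest ratio of the 7, 1.81-fold (1.73 to 1.89), rank 7 among the 208. miR-27a-3p was 1.53-fold higher in RR (interval 0.58 to 0.64 in log2), miR-24-3p 1.51-fold (1.47 to 1.54), miR-23a-5p 1.49-fold (1.18 to 1.87) and miR-27b-3p 1.39-fold (1.34 to 1.43). The miR-23 guides stood lowest, with miR-23a-3p 1.17-fold higher (1.12 to 1.22) and miR-23b-3p 1.13-fold (1.08 to 1.18). With both copies summed, miR-27 guides were 1.49-fold higher in RR (1.47 to 1.52) and miR-23 guides 1.15-fold (1.12 to 1.18), so the gap between seeds does not hang on how reads were split between copies.

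These ratios have to be set against a general shift, since the median of all 208 miRNAs was 1.28-fold, a log2 ratio of 0.36. The 7 members had a median log2 ratio of 0.54, and 5 of them lay above the median of all. Relative to it, miR-27a-5p was higher by 0.49, miR-27a-3p by 0.26 and miR-24-3p by 0.23, while miR-23a-3p stood at -0.13 and miR-23b-3p at -0.18. None of the 7 passed 2-fold, where 0.962% of all miRNAs were higher and 0.481% lower. At 1.5-fold, 3 of the 7 were higher (miR-27a-5p, miR-27a-3p and miR-24-3p), against 13.5% of all, and 0 were lower, against 0.962%. Both arms of MIR27A are among the 3, so they are not independent. None of the 3 reached 1.5-fold under the 3 other scalings tried, which were the median ratio, a total without the 10 highest miRNAs and the share of listed miRNA reads. There the split of all miRNAs at 1.5-fold was 1.44% higher and 0.962% lower with median-ratio scaling, 2.40% and 1.44% as a share, and at 2-fold 0 were higher and 0.962% lower in each of the 3. miR-24-3p also fell just short with a linear trend on GC content removed. Both miR-23 guides changed sign under those scalings, to log2 ratios of -0.10 for miR-23a-3p and -0.15 for miR-23b-3p with median-ratio scaling. The order of the members is the same under a scaling, which moves all of them alike. Of the members that did not pass, miR-27b-5p was at 1.05 (0.797 to 1.38), and miR-24-2-5p, with 2 reads in RR and 9 in CC, at 0.229 (0.0240 to 1.10), both with intervals that include 1.

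**Figure D4:**
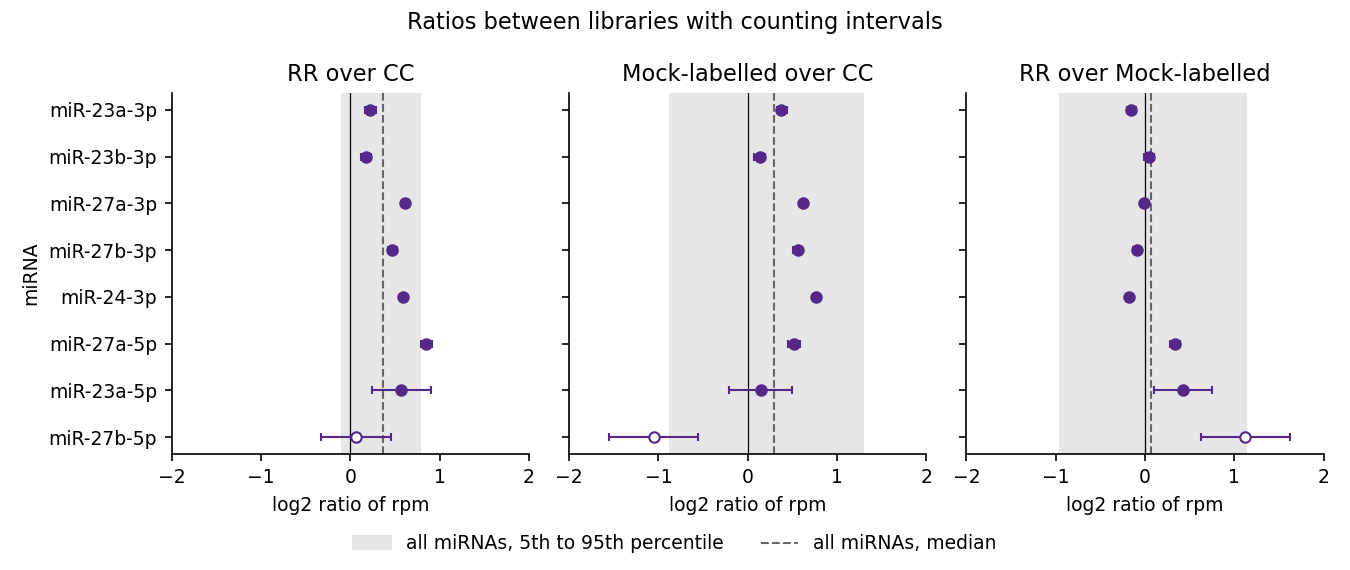
log2 ratios of the deposited rpm for 8 miRNAs in each comparison, with exact 95% counting intervals; grey spans the 5th to 95th percentile and the dashed line is the median of the 208 miRNAs that averaged at least 10 rpm, and the open point (miR-27b-5p) is below that level. In RR over CC miR-27a-5p lay past the 95th percentile and the miR-23 guides below the median.

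Mock over CC sets cells labelled as given a single dose against untreated cells. miR-24-3p led, 1.70-fold higher in Mock (1.66 to 1.74), followed by miR-27a-3p at 1.54-fold (1.51 to 1.57), miR-27b-3p at 1.47-fold (1.43 to 1.52) and miR-27a-5p at 1.43-fold (interval 0.46 to 0.58 in log2). miR-23a-3p was 1.30-fold (1.25 to 1.35) and miR-23b-3p 1.10-fold higher (1.05 to 1.14). miR-23a-5p, at 1.11-fold (0.866 to 1.41), was within counting error. miR-27b-5p was 2.07-fold lower in Mock (1.47 to 2.94), on 52 reads in Mock and 109 in CC. miR-24-2-5p, with 6 reads in Mock and 9 in CC, was at 0.675 (0.198 to 2.12), an interval that includes 1.

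The 7 passing members had a median log2 ratio of 0.52 in Mock over CC, beside 0.28 for all 208. None passed 2-fold, where 12.0% of all miRNAs were higher and 3.85% lower. At 1.5-fold, 2 of the 7 were higher, miR-24-3p and miR-27a-3p, a share of 28.6% against 33.7% of all, and 0 were lower, against 12.5%. Neither reached 1.5-fold under the 3 other scalings, where the split over all miRNAs at 2-fold became 5.29% higher and 6.73% lower with median-ratio scaling, 4.81% and 9.13% without the 10 highest, and 3.37% and 16.3% as a share. At 1.5-fold these splits were 19.2% and 20.7%, 14.4% and 25.0%, and 7.69% and 31.7%. With the GC trend removed miR-27a-5p also passed 1.5-fold. Ratios to Mock moved with base composition over the 208 miRNAs: GC content and log2 ratio had a Spearman correlation of -0.55 in Mock over CC, against 0.05 in RR over CC, across miRNAs read from the same libraries. The 3p guides have GC contents of 47.6% to 54.5%, miR-27a-5p 54.5% and miR-23a-5p 59.1%. Within the 82 miRNAs of 45% to 55% GC, which hold 6 of the 7 members, the median log2 ratio was 0.31. With a linear GC trend removed, the log2 ratios were 0.90 for miR-24-3p, 0.69 for miR-27a-3p, 0.65 for miR-27a-5p, 0.49 for miR-27b-3p, 0.40 for miR-23a-5p, 0.31 for miR-23a-3p and 0.07 for miR-23b-3p, so that the passing miR-27 and miR-24 members again lay above miR-23 of the same arm. miR-23b-3p and miR-23a-5p changed sign under all 3 other scalings, to -0.38 and -0.36 as a share of the listed miRNA reads, where miR-23a-3p did too, at -0.13.

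**Figure D5:**
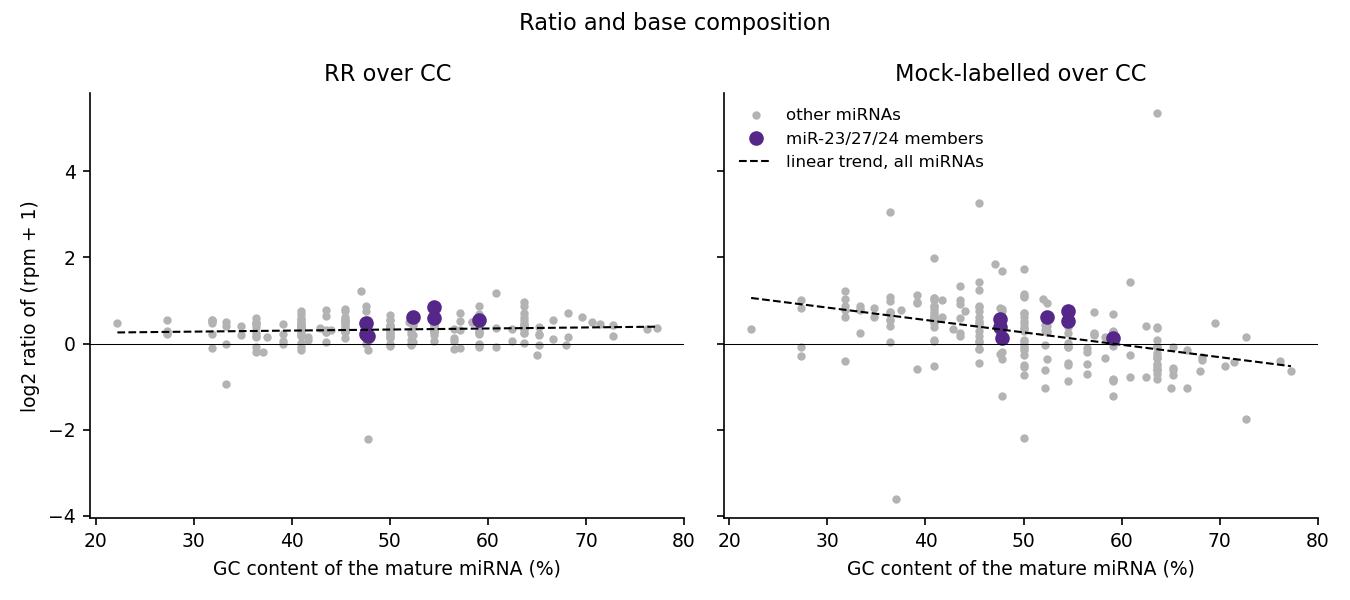
log2 ratio of (rpm + 1) against the GC content of the mature miRNA in RR over CC and in the Mock-labelled library over CC, for 208 miRNAs; violet points are the 7 members and the dashed line is the linear trend over all. The trend is nearly flat in RR over CC (Spearman 0.05) and falls in Mock over CC (-0.55), where miR-24-3p lies above the line at 54.5% GC.

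In RR over Mock, repeated against single exposure as labelled, the guides were close. miR-27a-3p had a ratio of 0.991 (0.975 to 1.01) and miR-23b-3p of 1.03 (0.989 to 1.07), both including 1. miR-24-3p was at 0.885 (0.866 to 0.905), miR-23a-3p at 0.899 (0.866 to 0.934) and miR-27b-3p at 0.941 (0.914 to 0.970), each lower in RR by a small margin. Of the 5 member 5p arms, 3 lay on the other side: miR-27a-5p was 1.26-fold higher in RR (1.21 to 1.31), miR-23a-5p 1.34-fold (1.08 to 1.68) and miR-27b-5p 2.17-fold (1.54 to 3.07). The 5p arms of miR-24 had fewer reads in RR than in Mock, each at a ratio of 0.338, with intervals that include 1 (0.0334 to 1.89 for miR-24-2-5p and 0.00645 to 4.21 for miR-24-1-5p). The median log2 ratio of the 7 was -0.01, beside 0.06 for all 208. None passed 2-fold, where 8.17% of all were higher and 4.81% lower, and none passed 1.5-fold, where 22.1% were higher and 14.4% lower. Directions this small rest on the scale: as a share of the listed miRNA reads miR-27a-3p (0.16), miR-27b-3p (0.09) and miR-23a-3p (0.02) changed sign, miR-23a-5p passed 1.5-fold, and the split at 2-fold over all miRNAs became 13.5% higher and 3.85% lower. With median-ratio scaling miR-23b-3p (-0.05) changed sign, and that split was 5.29% and 5.29%; with the GC trend removed it was 3.37% and 3.37%. GC content had a Spearman correlation of 0.60 with this ratio, and with that trend removed miR-27a-5p was at a log2 ratio of 0.19, miR-23a-5p at 0.12 and miR-27b-5p at 1.12.

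Relatives of the clusters outside the 10 were mostly rare. Of 10 miRNAs listed as relatives by locus or by a like seed, together with the other arm of their hairpins, 2 passed the mean of 10 rpm, and neither passed 2-fold in any comparison. miR-128-3p, whose seed is that of miR-27 shifted by a base, stood at 473 rpm in RR, 481 rpm in Mock and 397 in CC, 1.19-fold higher in RR than in CC (1.14 to 1.24). miR-128-1-5p stood at 13.9 rpm in RR, 13.4 rpm in Mock and 14.3 in CC. Only miR-23c and miR-9985 shared a seed with a 3p member without being one, with at most 6 reads in a library. miR-23b-5p, the arm of MIR23B outside the member list, has the seed of miR-23a-5p and stood at 3.82 rpm in RR, 5.36 rpm in Mock and 3.16 in CC. miR-181d-5p, encoded near the a cluster, stood at 8.40 rpm in RR, 11.9 rpm in Mock and 4.83 in CC.

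miR-3074-5p comes from the strand opposite MIR24-1, and 20 of its 21 bases pair exactly with miR-24-3p. It had 66 reads in RR, 121 in Mock and 53 in CC, or 6.30, 11.4 and 4.92 rpm, and like miR-24-3p it was highest in Mock. Per 100 reads of both, it gave 0.460 in RR (0.356 to 0.585), 0.733 in Mock (0.609 to 0.875) and 0.540 in CC (0.405 to 0.706). Whether its reads were counted on the right strand was not tested. The deposited table places miR-24-3p in the family mir-3074 and miR-3074-5p in the family mir-24, so the families of that column were not used.

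The members differed in profile over the 3 libraries. By Euclidean distance between log2 profiles, each centred on its own mean over the 3 libraries, miR-27b-3p (0.04) and miR-27a-3p (0.10) lay nearest the median profile of the 7, and miR-23a-5p (0.34), miR-27a-5p (0.30) and miR-23b-3p (0.29) farthest. Among non-members with a mean of 100 rpm or more, of which there were 87, the likest to that median were let-7d-5p (0.04), miR-28-3p (0.06), miR-200a-3p (0.07) and let-7e-5p (0.09). miR-23a-5p was closest to miR-361-3p (0.03), miR-125b-5p (0.09), miR-744-5p (0.09) and miR-1307-3p (0.09), all highest in RR. Over 3 libraries such likeness is a description only.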

How the data were processed

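Per the labels' protocols, adapters were ligated to both ends of the RNA before reverse transcription, PCR, size selection and sequencing on an Illumina NovaSeq. The submitters' processing notes name Bowtie and GRCh38 without saying what each was used for. Trimming, the miRNA reference and the fate of reads matching several miRNAs were not given in the sources used here. The deposited values are called TPM, but they behave as RPM: 100% of the values of each library were whole multiples, to within 0.01 of a read, of 1 step size per library, so whole reads and library totals were recovered. Ligation and PCR without molecular identifiers read sequences unequally, so ratios between miRNAs are ratios of reads.

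Columns were tied to libraries by the treatment tag and groups by the title. With 1 library per group no count model or test was run. Levels have exact Poisson intervals, ratios Clopper-Pearson intervals of the share of reads, and ratios of ratios conditional exact intervals of the odds ratio. A pseudocount of 1 rpm, a mean of 10 rpm over the 3 libraries and 2-fold were used, with 1.5-fold as a second size. GC content came from the deposited sequences.

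Sequences and coordinates are RefSeq's on GRCh38.p14, with overlapping genes from GENCODE release 29. The named miRNAs are the 10 members, 10 relatives, any miRNA sharing a seed with a member, marker lists, and the 4 non-members nearest to the median profile and to the farthest member. Members, lists and alternatives were chosen with earlier results of these data known. The comparison of arms over 38 hairpins, matched by name, was added after the arm ratios were seen. Alternatives changed the pseudocount (0.1 or 10 rpm), the filter (a mean of 1 or 100 rpm, or none), the size (1.5-fold or 4-fold), the scaling (median ratio to the geometric mean, an equal total after leaving out the 10 highest miRNAs, or the share of listed miRNA reads) and a linear GC trend centred on 50%. The interval computation was tested on simulated data. Tools were scipy 1.17.1, numpy 2.4.6, pandas 2.3.3 and, for plots, matplotlib 3.10.9, under Python 3.11.15.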

Additional observations from a re-analysis of the deposited data

How the results depend on the processing

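No paired analysis was possible because each group has 1 library, and leaving out a replicate could not be done for the same reason. The median log2 ratio of the passing members depended on the scale. With median-ratio scaling it was 0.23 in RR over CC, 0.29 in Mock over CC and -0.10 in RR over Mock; with the 10 highest miRNAs left out of the total, 0.24, 0.17 and 0.019; as a share of the listed miRNA reads, 0.23, 0.0092 and 0.16. The median of all 208 miRNAs moved with it, to 0.03 in RR over CC and -0.22 in Mock over CC as a share, by construction of the scaling. Relative to that median the members stood at 0.18 in RR over CC on the deposited scale and between 0.18 and 0.22 under the alternatives, at 0.24 in Mock over CC and between 0.08 and 0.36, and at -0.08 in RR over Mock and between -0.10 and 0.03. With no filter, which adds members of few reads, the medians were 0.35, 0.37 and -0.050 over 10 members. A mean of 1 rpm or more gave 0.45 in Mock over CC and 0.015 in RR over Mock, and a mean of 100 rpm or more gave -0.050 in RR over Mock. At 1.5-fold, 3 of the 7 passing members were higher in RR over CC, against 13.5% of all 208 miRNAs. In Mock over CC 2 of the 7 were, against 33.7%. None of these calls held under the 3 other scalings. Of the 7, 0 passed 2-fold on the deposited scale or under any alternative, and at 4-fold none passed. Members that averaged under 10 rpm are not in that count, and some of them passed 2-fold under an alternative. The log2 ratio of miR-27b-5p in Mock over CC, -0.92, reached -1.03 with a pseudocount of 0.1 rpm and -1.52 as a share. Depth limits the 5p arms of miR-24, with at most 9 reads in a library.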
